A study of Mus musculus with 21 samples.

Results

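The genes described here are 31 genes of cholesterol and fatty acid synthesis, taken by symbol from a QuantSeq table of 55421 gene identifiers. They were listed by name for what their products do, and all 31 symbols matched 1 row each. By role, 6 belong to the mevalonate arm of cholesterol synthesis, 11 to the squalene and sterol arm, 4 to the sterol regulatory element-binding protein (SREBP) regulators and 9 to fatty acid synthesis, with 1 sterol transporter, *Stard4*. All 31 passed the filter on low values, an average of more than 1 TPM across the 15 libraries, as did 11554 genes in all.

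The cells were a lymphoid progenitor (LP) line of C57BL6/J background, described in the methods as deficient for *Ebf1*, cultured on OP9 stroma with SCF, IL-7 and Flt3L. Cas9-GFP was introduced by retrovirus, followed by a second retrovirus carrying sgRNAs and the surface marker hNGFR, and GFP+hNGFR+ cells were sorted 5 days later without Notch stimulation. The 5 conditions were sgCont, the control sgRNA against luciferase, and sgLmo2, sgZbtb1, sgCbfa2t2 and sgCbfa2t3, which target Lmo2, a bridging protein of transcription factor complexes, the zinc finger factor Zbtb1 that binds it, and the related corepressors Cbfa2t2 and Cbfa2t3. Each had 3 libraries, and by that description every library, sgCont included, came from *Ebf1*-deficient cells with Cas9 and the viral markers. The labels name 1 cell line, and sorted pools were sequenced in bulk, so cells with unedited or differently edited alleles were measured together, and fewer cells of a type cannot be told apart from less RNA per cell. ChIP-seq for Zbtb1 and for Cbfa2t3 was done in the same kind of LPs without sgRNA, and gave 1 list of reproducible peaks per factor.

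Recovered reads per library ranged from 1705416 to 2095447, which made 1 read worth 0.477 to 0.586 TPM and 3 reads, taken as the floor, 1.43 to 1.76 TPM. The sgCont libraries stood apart from the other 12. Their 1705416 to 1727730 reads were the fewest, beside 1790019 to 2091514 in sgZbtb1, and their mitochondrial share of 6.72% to 6.89% was the highest, beside 5.42% to 6.48% in sgZbtb1. The part of either in the comparisons with sgCont was not tested. The mRNA of the targeted genes did not mark the edited libraries. *Zbtb1* read 94.4 to 113 TPM in the libraries labelled sgZbtb1 and 55.7 to 66.6 TPM in sgCont, and *Cbfa2t3* read 341 to 365 TPM in those labelled sgCbfa2t3 and 172 to 210 TPM in sgCont. For *Lmo2* and *Cbfa2t2* the ranges of the libraries labelled for them overlapped or exceeded those of sgCont. *Ebf1* mRNA was read in all 15 libraries, at 305 to 366 TPM in sgCont and 209 to 221 TPM in sgZbtb1 without overlap, with the other 3 conditions between 249 and 310 TPM. A 3′ tag does not show whether the coding part upstream was disrupted, for *Ebf1* as for the targeted genes, so these reads do not check the deficiency and the conditions are named by their labels throughout. By immunoblot of GFP+hNGFR+ cells, the paper reported loss of the targeted Lmo2, Zbtb1 and Cbfa2t3 proteins. All 11 LP markers passed the filter, whereas 17 of the 18 OP9 stroma markers did not, 5 of them being at 0 in every library.

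Cells make cholesterol from acetyl-CoA by way of mevalonate, farnesyl diphosphate, squalene and a series of sterols, and fatty acids by carboxylation, elongation and desaturation of the same precursor. SREBP2, encoded by *Srebf2*, mainly drives the cholesterol genes and SREBP1, encoded by *Srebf1*, mainly the fatty acid genes. Both are held in the endoplasmic reticulum with Scap and Insig1 when sterols are plentiful and are cleaved and sent to the nucleus when they are scarce, so the enzymes of both pathways are known to move together in many cell types. Dividing lymphoid cells use these products for new membranes.

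QuantSeq reads 1 tag near the 3′ end of each transcript, so levels are relative to all tags of a library and were not divided by length. On that scale the 31 genes ranged from a mean over 15 libraries of 2.65 TPM for *Acss2*, the cytosolic acetyl-CoA synthetase, to 751 TPM for *Scd2*, a stearoyl-CoA desaturase. The next highest were *Fads2*, the fatty acid desaturase of the first step toward long polyunsaturated fatty acids, at 283 TPM and *Fasn*, the fatty acid synthase, at 274 TPM. The lowest cholesterol enzyme was *Idi1*, the isomerase of isopentenyl diphosphate, at 4.07 TPM. For 28 of the 31 the mean was above 10 TPM, and *Acss2* alone had a library with fewer than 3 reads.

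The 2 transcription factors of the pathway stood apart in level. *Srebf2* read 192 to 260 TPM over all libraries, with a coefficient of variation of 9.46%, and *Srebf1* read 19.1 to 50.2 TPM. The 9 fatty acid genes together gave 1811 to 1881 TPM in sgCont, against 903 to 1107 TPM for the 17 cholesterol enzymes. *Scd2* thus gave more tags in sgCont, 744 to 794 TPM, than the 11 squalene and sterol enzymes together, 532 to 697 TPM.

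**Figure D1:**
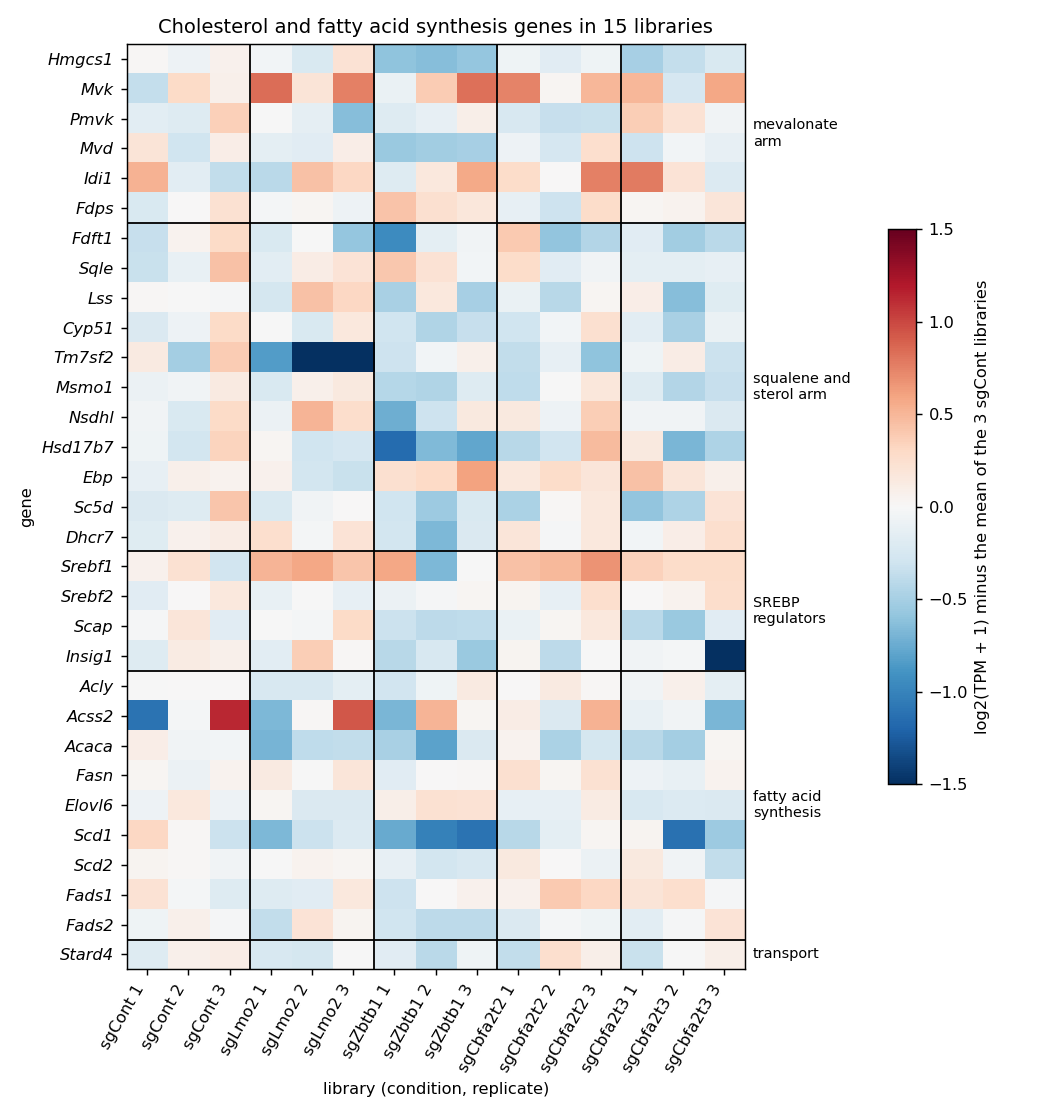
Each row is 1 gene and each column 1 library. The colour is log2(TPM + 1) minus the mean of the 3 sgCont libraries, with blue below and red above, and differences beyond 1.5 take the end colour. In the sgZbtb1 columns *Hmgcs1*, *Mvd*, *Hsd17b7* and *Scd1* are blue in all 3 libraries, while *Tm7sf2* is blue in the sgLmo2 columns and *Insig1* in 1 sgCbfa2t3 library.

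The comparison of each sgRNA with sgCont asked which genes changed when each factor was targeted. In the libraries labelled sgZbtb1, 3 of the 31 genes fell at a limma adjusted p below 0.05 over all genes and none rose. These were *Hmgcs1*, *Hsd17b7* and *Fads2*, 1 each from the mevalonate arm, the sterol arm and the fatty acid genes. Among all 11554 genes tested, 4.79% passed, 2.94% as lower and 1.85% as higher, so 9.68% of the lipid genes stands beside that background. The median log2 fold change of the 31 genes was -0.22, beside -0.03 for all genes tested, and 25 of 31 (80.6%) were below 0, beside 53.3% of all genes. The 3 sgZbtb1 libraries did not share this shift evenly. Against the sgCont mean, the median of the 31 genes was -0.30 in replicate 1 and -0.24 in replicate 2, with 26 and 21 genes below it. In replicate 3 it was -0.05, with 18 below, which lies within the sgCont libraries (-0.06 to 0.07, with 10 to 20 below). The libraries of the other conditions ranged from -0.15 with 24 below (sgLmo2 replicate 1) to 0.155 with 9 below (sgCbfa2t2 replicate 3), with sgCbfa2t3 replicate 3 at -0.13. With sgZbtb1 replicate 3 left out, the median of the comparison was -0.20.

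*Hmgcs1* encodes the cytosolic HMG-CoA synthase that joins acetyl-CoA and acetoacetyl-CoA at the head of the mevalonate arm. It read 199.8, 187 and 207 TPM in the 3 sgCont libraries and 129.6, 126 and 132 TPM in the 3 sgZbtb1 libraries. The groups do not overlap, and every sgZbtb1 value lies below all 12 values of the other conditions. The mean fell from 198 ± 10.2 (SD, n = 3) to 129 ± 2.71 TPM (SD, n = 3). The log2 fold change was -0.61 with an SE of 0.11 (limma adjusted p = 0.000135). It ranked 79th by p among 11554 genes, and the exact permutation test of 3 against 3 gave p = 0.1, the smallest that this design allows.

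The other conditions order *Hmgcs1* between these levels. In sgLmo2 it read 193, 169 and 229.5 TPM, and in sgCbfa2t2 189.5, 176 and 189 TPM, both overlapping sgCont. In sgCbfa2t3 it read 139.9, 154 and 169 TPM, below every sgCont library, with a log2 fold change of -0.36 (SE 0.11) that did not pass (limma adjusted p = 0.148, unadjusted p = 0.00205). All of these comparisons share the same 3 sgCont libraries. Set directly against sgCbfa2t3, the sgZbtb1 difference was -0.25 on the log2 scale (SE 0.11, limma adjusted p = 0.411).

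The sequence before the start of *Hmgcs1* is shown because it holds the 1 match to the sterol regulatory element pattern TCACNCCAC among the 24 genes whose promoter windows were searched, and its end is overlapped by a Zbtb1 peak. It covers chr13:119690101-119690350 on the plus strand of GRCm38.p6 (RefSeq), with capitals for the sterol element TCACCCCAC, the CCAAT boxes (read as ATTGG on this strand) and the GC boxes (GGGCGG or CCGCCC).
Hmgcs1: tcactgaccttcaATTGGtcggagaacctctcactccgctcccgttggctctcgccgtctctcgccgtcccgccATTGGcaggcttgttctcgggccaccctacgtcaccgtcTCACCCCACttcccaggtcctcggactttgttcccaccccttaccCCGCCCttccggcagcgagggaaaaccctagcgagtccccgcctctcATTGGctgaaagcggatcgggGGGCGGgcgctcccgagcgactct
The stretch holds 1 sterol element, 3 CCAAT boxes and 2 GC boxes. The element starts 137 bases before the RefSeq start.

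The other 5 mevalonate genes moved less evenly. *Mvd*, the mevalonate diphosphate decarboxylase, averaged 57.8 ± 10.2 TPM (SD, n = 3) in sgCont and 39.5 ± 0.873 TPM (SD, n = 3) in sgZbtb1, without overlap, a log2 difference of -0.52 (SE 0.18, limma adjusted p = 0.0698). *Fdps*, the farnesyl diphosphate synthase, had a positive log2 difference of 0.28 (SE 0.16, limma adjusted p = 0.383) and *Mvk*, mevalonate kinase, one of 0.37 (SE 0.30, limma adjusted p = 0.568). Neither passed, and both groups of *Mvk* overlapped. *Pmvk*, the phosphomevalonate kinase, and *Idi1* differed by -0.08 and 0.18 on the log2 scale, each within its SE. Summed, the 6 genes read 351 to 411 TPM in sgCont and 299 to 316 TPM in sgZbtb1, and *Hmgcs1* alone made up most of that gap.

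*Hsd17b7* encodes the 3-ketosteroid reductase of cholesterol synthesis. It read 29.6, 25.5 and 39.3 TPM in sgCont and 13.4, 19.1 and 17.7 TPM in sgZbtb1, with no overlap. The mean fell from 31.5 ± 7.09 (SD, n = 3) to 16.7 ± 2.97 TPM (SD, n = 3). The log2 fold change was -0.86 with an SE of 0.26 (limma adjusted p = 0.0351). The call was lost when sgCont replicate 1 or 3, or sgZbtb1 replicate 1 or 3, was left out, with limma adjusted p of 0.0658 to 0.204 and log2 fold changes of -0.70 to -0.91. It was also lost with DESeq2 (adjusted p = 0.0598), with limma on unlogged TPM (0.204) and with no filter on low values (0.103), and kept with edgeR (0.0392). In sgLmo2 it read 31.7, 24.9 and 25.8 TPM, in sgCbfa2t2 22.9, 25.3 and 43.5 TPM, and in sgCbfa2t3 34.3, 18.8 and 22.2 TPM. Those 9 values overlap sgCont, and only the sgCbfa2t3 library at 18.8 TPM falls within the sgZbtb1 range.

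The *Hsd17b7* promoter, shown for the second called cholesterol gene, covers chr1:169969242-169969455 on the minus strand of GRCm38.p6 (RefSeq). It is printed 5′ to 3′ up to the first annotated base of the gene, with capitals for CCAAT boxes (ATTGG here), GC boxes and the E-box CACGTG.
Hsd17b7: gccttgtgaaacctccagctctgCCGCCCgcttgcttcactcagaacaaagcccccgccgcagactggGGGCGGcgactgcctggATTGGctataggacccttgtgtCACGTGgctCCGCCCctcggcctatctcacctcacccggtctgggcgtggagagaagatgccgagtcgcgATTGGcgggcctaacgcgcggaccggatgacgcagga
It holds 2 CCAAT boxes, 3 GC boxes and 1 E-box, and no match to the sterol element. Unlike *Hmgcs1*, it has no Zbtb1 or Cbfa2t3 peak that names it as nearest gene.

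Among the other 10 squalene and sterol genes, 8 had log2 fold changes below 0 in sgZbtb1 and none passed. *Cyp51*, the lanosterol demethylase, read 122, 135 and 173 TPM in sgCont and 115, 103 and 111 TPM in sgZbtb1. The groups do not overlap, and the difference was -0.37 (SE 0.13, limma adjusted p = 0.0973). Similar sizes were found for *Msmo1*, the sterol C4-methyl oxidase (-0.36, SE 0.14), *Sc5d*, the lathosterol desaturase (-0.36, SE 0.23), and *Dhcr7*, the last reductase of one branch (-0.39, SE 0.19), all without overlap and with limma adjusted p of 0.115 to 0.447. Reads from *Cyp51* and from the convergent gene *Akap9* on the opposite strand could be mixed, since the strand used in counting is not given in the sources used here. The same holds for *Fdft1* with *Ctsb* and for *Acss2* with *Gss*.

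The exceptions were *Ebp* and *Sqle*. *Ebp*, the sterol isomerase, averaged 70.4 ± 5.21 TPM (SD, n = 3) in sgCont and 92.3 ± 12.9 TPM (SD, n = 3) in sgZbtb1, with all 3 sgZbtb1 values above all sgCont values. Its log2 difference of 0.38 (SE 0.15) did not pass (limma adjusted p = 0.134). *Sqle*, the squalene epoxidase, a rate-limiting enzyme, read 44.1, 51.5 and 76.2 TPM in sgCont and 74.3, 65 and 54 TPM in sgZbtb1, which overlap (log2 difference 0.19, SE 0.18). The remaining genes, *Fdft1* (squalene synthase), *Lss* (lanosterol synthase), *Nsdhl* (a C4 decarboxylase) and *Tm7sf2* (the C14 reductase), lay between -0.38 and -0.09, with limma adjusted p of 0.508 to 0.950.

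Of the fatty acid genes, *Fads2* passed. It read 289, 316 and 298 TPM in sgCont and 244, 229 and 229 TPM in sgZbtb1, without overlap. The mean fell from 301 ± 13.9 (SD, n = 3) to 234 ± 8.64 TPM (SD, n = 3). The log2 fold change was -0.36 with an SE of 0.11 (limma adjusted p = 0.0303). The call was lost without sgCont replicate 2 or 3 or sgZbtb1 replicate 2 or 3 (limma adjusted p of 0.0837 to 0.141), and its log2 fold change then lay between -0.32 and -0.37. DESeq2 (adjusted p = 0.0583), limma on unlogged TPM (0.121) and limma with no filter (0.134) lost the call as well, whereas edgeR kept it (0.0426). In the other conditions it read 232, 346 and 310 TPM (sgLmo2), 258, 294 and 287 TPM (sgCbfa2t2) and 269, 296 and 347 TPM (sgCbfa2t3), each overlapping sgCont.

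The desaturase *Scd1* had the largest log2 fold change of the 31 genes in sgZbtb1, -0.96 (SE 0.30), and just missed the threshold (limma adjusted p = 0.0513). It read 27.9, 22.6 and 17.6 TPM in sgCont and 12.9, 10.5 and 9.82 TPM in sgZbtb1, without overlap. It passed with edgeR on recovered reads (adjusted p = 0.0417) and with DESeq2 (adjusted p = 0.0499), and not with limma on unlogged TPM or with no filter (adjusted p = 0.0997 and 0.113). The much more abundant *Scd2* read 794, 786 and 744 TPM in sgCont and 712, 638 and 655 TPM in sgZbtb1, also without overlap, a log2 difference of -0.21 (SE 0.08, limma adjusted p = 0.136).

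*Acaca*, the acetyl-CoA carboxylase that commits carbon to fatty acids, averaged 48.3 ± 2.95 TPM (SD, n = 3) in sgCont and 34.2 ± 7.0 TPM (SD, n = 3) in sgZbtb1, a log2 difference of -0.50 (SE 0.20, limma adjusted p = 0.146). *Fasn* read 272, 250 and 277 TPM against 237, 267 and 269.6 TPM, which overlap (log2 difference -0.05, SE 0.10). *Acly*, the ATP citrate lyase that supplies cytosolic acetyl-CoA, and *Fads1*, the desaturase that acts after Fads2, differed by -0.07 and -0.08, each less than its SE. *Elovl6*, the elongase of palmitate, was on the other side at 0.18 (SE 0.11, limma adjusted p = 0.452). *Acss2* rests on 1 to 11 reads a library and overlapped between the groups.

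*Srebf2* itself read 192, 219 and 243 TPM in sgCont and 204, 215 and 222 TPM in sgZbtb1, a log2 difference of -0.02 (SE 0.11). *Srebf1* read 32.5, 36.5 and 25.2 TPM against 46.9, 19.1 and 30.9 TPM, with an overlap over the whole sgCont range (log2 difference -0.03, SE 0.22). The escort protein gene *Scap* averaged 83.8 ± 10.6 TPM (SD, n = 3) in sgCont and 64.5 ± 1.77 TPM (SD, n = 3) in sgZbtb1, without overlap (log2 difference -0.37, SE 0.15, limma adjusted p = 0.151). *Insig1*, the retention protein and itself a known SREBP target, read 19.8, 24.9 and 24 TPM against 16.8, 19.1 and 15.2 TPM, also without overlap (log2 difference -0.40, SE 0.30, limma adjusted p = 0.516). *Stard4*, which carries sterol between membranes, differed by -0.22 (SE 0.17, limma adjusted p = 0.553).

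**Figure D2:**
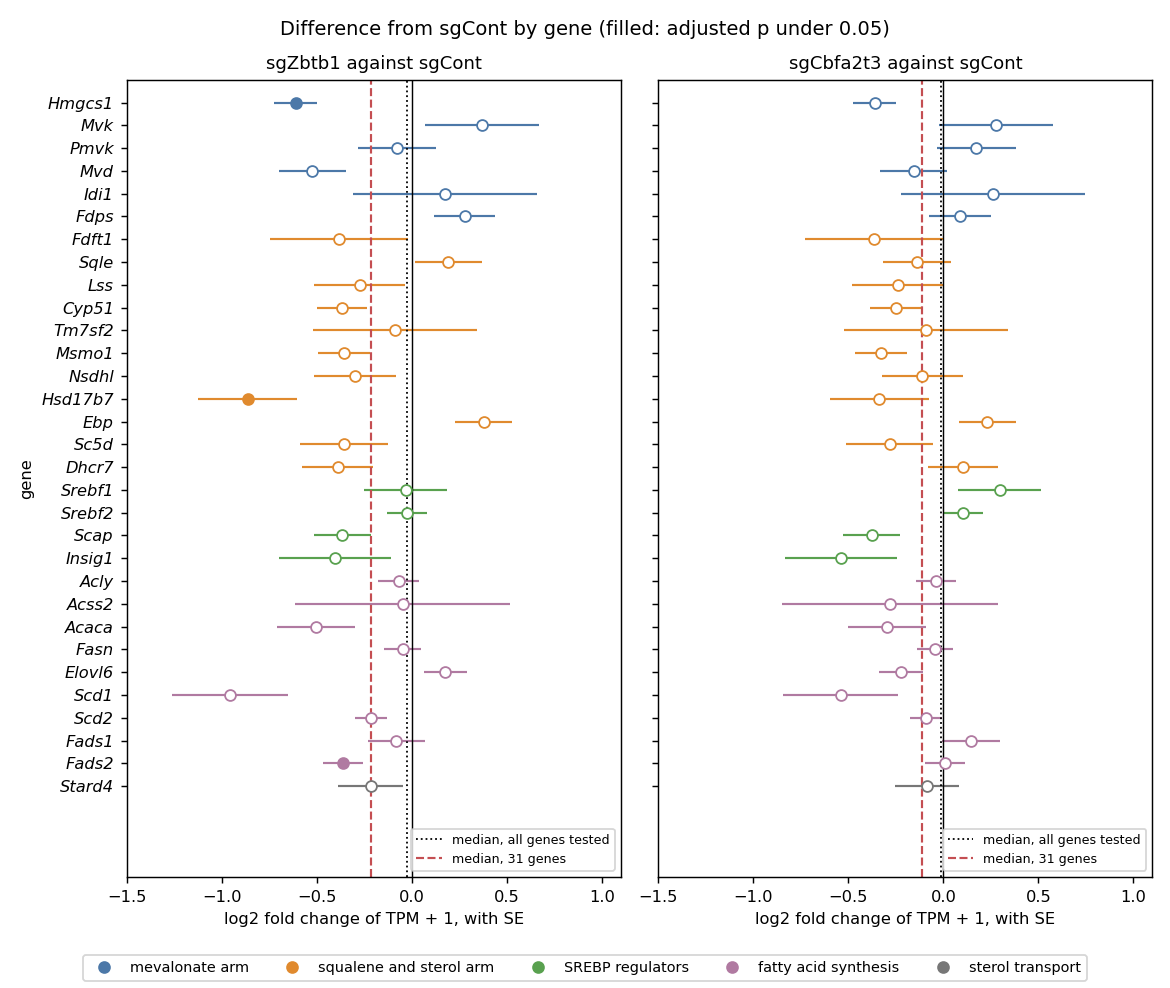
Points are log2 fold changes of TPM + 1 with their SE for each gene, against sgCont, in sgZbtb1 (left) and sgCbfa2t3 (right). Colours give the role, filled points passed an adjusted p of 0.05, the dashed line is the median of the 31 genes and the dotted line that of all genes tested. Only *Hmgcs1*, *Hsd17b7* and *Fads2* in sgZbtb1 are filled, and the sgZbtb1 median lies at -0.22.

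Without the threshold, 11 of the 31 genes (35.5%) had an unadjusted limma p below 0.05 as lower in sgZbtb1 and 1 (*Ebp*) as higher, beside 10.2% and 7.37% of all genes. The 3 sgZbtb1 values lay below the 3 sgCont values for 13 genes (41.9%), beside 12.8% of all genes, and above them for 1, beside 10.1%. Genes under common regulators do not count as independent, and these shares are descriptions. Summed over the 31 genes, the libraries read 3164, 3238 and 3354 TPM in sgCont and 2832, 2797 and 2956 TPM in sgZbtb1, without overlap. Those of sgCbfa2t3, at 3149, 3005 and 3036 TPM, also lay below every sgCont library, whereas sgLmo2 (3077 to 3323 TPM) and sgCbfa2t2 (3186 to 3424 TPM) overlapped sgCont. Abundant genes such as *Scd2* weigh most in these sums. The study's thresholds for a differentially expressed gene (p under 0.05, more than 1 log2 unit in either direction and over 10 TPM on average in one of the groups) were passed by 0 of the 31 genes in each comparison on the log2(TPM + 1) scale. *Scd1* in sgZbtb1, at means of 22.7 and 11.1 TPM, did pass them with a pseudocount of 0.1 (log2 fold change -1.01), with edgeR (-1.02) and with DESeq2 (-1.03). Of all genes, on the log2(TPM + 1) scale, 1.66% passed them in sgZbtb1, 0.234% in sgLmo2, 0.502% in sgCbfa2t2, 0.658% in sgCbfa2t3 and 0.710% between sgZbtb1 and sgCbfa2t3.

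**Figure D3:**
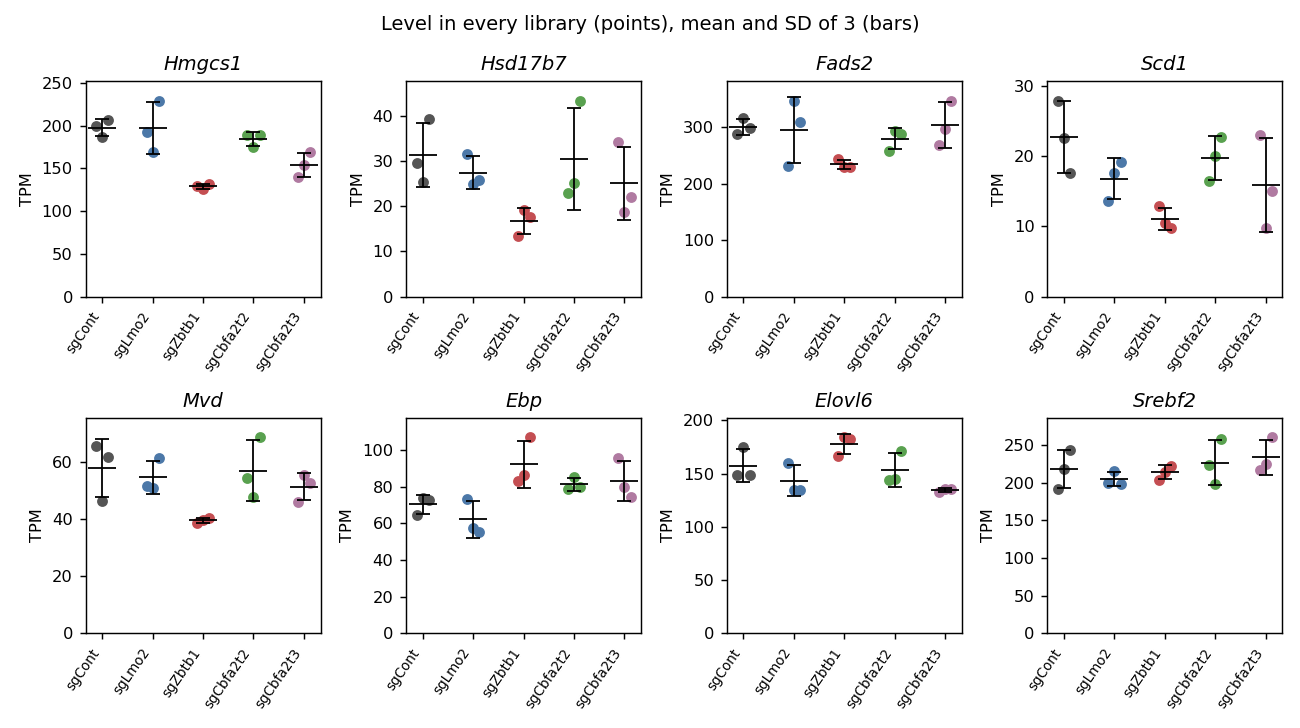
Each panel shows TPM on an axis from 0 for 1 gene, with points for the 3 libraries of each condition and bars for their mean and SD. *Hmgcs1* in sgZbtb1 lies at 126 to 132 TPM, below all other libraries, whereas *Srebf2* spans 192 to 260 TPM and each targeted condition overlaps sgCont.

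Other genes moved in the same sgZbtb1 libraries, and their part in these results was not tested. Of the 11 LP markers, *Ly6d*, *Kit* and *Ptprc* fell and *Cd93* rose by limma and DESeq2, while edgeR called 3 of these 4 and not *Ptprc*. *Ly6d*, a marker of lymphoid commitment, fell from 158 ± 26.1 to 29.4 ± 6.75 TPM (SD, n = 3 each). The summed LP markers read 2301 to 2333 TPM in sgCont and 2109 to 2273 TPM in sgZbtb1. The 7 T cell markers summed to 86.5 to 111 TPM and 45.7 to 68.7 TPM, with 2 of the 7 tested and *Lck* called as lower. Of the 8 B cell markers 3 were tested, with a median log2 fold change of 0.05, and their sums overlapped at 5.79 to 13.5 TPM in sgCont and 1.12 to 9.82 TPM in sgZbtb1, although 1 of them, *Pax5*, fell from a mean of 6.80 to 0.810 TPM. The 10 proliferation markers, with 0 called by limma, edgeR or DESeq2 and 3 at an unadjusted limma p below 0.05, summed to 3875 to 4016 TPM and 4113 to 4228 TPM. The OP9 stroma markers summed to 1.16 to 6.97 TPM in sgCont and 0.558 to 4.78 TPM in sgZbtb1. Of the fat-cell genes in that list, *Adipoq*, *Pparg* and *Lpl* were each at or below 1.61 TPM in every library and *Fabp4* at or below 4.00 TPM.

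The neighbouring lipid pathways gave 40 genes in the fit, of which 5 fell and 1 rose in sgZbtb1 by limma, beside 2.94% and 1.85% of all genes. By edgeR 6 of the 40 were called and by DESeq2 4, without *Cpt1a* and *Lipa*. *Acsl3*, which activates fatty acids with coenzyme A, fell from 86.3 ± 1.95 to 51.5 ± 2.35 TPM (SD, n = 3 each; log2 fold change -0.74, limma adjusted p = 0.000634). The fatty acid oxidation genes *Acadm* (log2 fold change -0.71) and *Cpt1a* (-0.61) fell also, as 2 of 9 tested in that list. *Npc2*, the lysosomal cholesterol carrier, fell by 0.42 on the log2 scale, while *Lipa*, the lysosomal acid lipase, rose by 0.90, with 7 genes of uptake and trafficking tested. *Mbtps2*, the site-2 protease that releases SREBPs from the membrane, fell from 16.7 ± 6.87 to 5.38 ± 2.17 TPM (SD, n = 3 each; log2 fold change -1.44, limma adjusted p = 0.0104). By limma, edgeR and DESeq2, 0 of 6 isoprenoid genes and 0 of 5 genes of the LXR and efflux list passed, with 0 and 1 at an unadjusted limma p below 0.05. The median log2 fold change of the 40 genes was -0.10, beside -0.03 for all genes tested.

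In the libraries labelled sgCbfa2t3, none of the 31 genes passed against sgCont by limma, edgeR or DESeq2, beside 0.537% of all genes by limma. An unadjusted p below 0.05 was reached by 3 (9.68%, beside 10.6% of all genes), all lower, *Hmgcs1*, *Msmo1* and *Scap*. *Msmo1* averaged 98.7 ± 8.89 TPM (SD, n = 3) against 124 ± 10.8 TPM (SD, n = 3), and *Scap* 64.3 ± 8.68 TPM (SD, n = 3) against 83.8 ± 10.6 TPM (SD, n = 3), each without overlap and with limma adjusted p of 0.357 and 0.334. *Insig1* read 22, 22.3 and 7.20 TPM, so that 1 library set its low mean. The median log2 fold change of the 31 genes was -0.11, and -0.03 without sgCont replicate 3 or -0.20 without sgCont replicate 2, so it moved with single control libraries. In the same libraries *Ly6d* fell from 158 ± 26.1 to 57.9 ± 8.52 TPM (SD, n = 3 each; log2 fold change -1.43, limma adjusted p = 6.82e-10), and *Hbb-bt*, a beta-globin gene and the 1 erythroid marker of 7 in the fit, rose from 130 ± 17.3 to 217 ± 52.0 TPM (SD, n = 3 each; log2 fold change 0.72, limma adjusted p = 0.00303), a call that DESeq2 did not make. DESeq2 called *Ptprc* as a second LP marker. The proliferation markers summed to 4251 to 4361 TPM, above sgCont without overlap, with 0 of 10 called by limma, edgeR or DESeq2 and 1 at an unadjusted limma p below 0.05. Their part in these results was not tested. Of the 40 neighbouring lipid genes, 0 passed by limma, edgeR or DESeq2 and 6 had an unadjusted limma p below 0.05.

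The direct comparison of sgZbtb1 with sgCbfa2t3 takes no mean from sgCont, but its SEs and p-values come from the fit of all 15 libraries. It had 0 of 31 called by limma and by edgeR and 1 by DESeq2, beside 1.13% of all genes by limma. At an unadjusted limma p below 0.05 were 6 (19.4%), beside 10.0% of all genes. *Fads2* was lower in every sgZbtb1 library, with a log2 difference of -0.37 (SE 0.11, limma adjusted p = 0.0683). It passed in 3 of 16 settings. These were the 6 libraries alone (limma adjusted p = 0.0411), the replicate number added to the model as a block (0.0248) and the fit without sgCbfa2t3 replicate 1 (0.0327). Over the 16 settings the adjusted p reached 0.379. *Elovl6* read 167, 184 and 182 TPM in sgZbtb1 and 132, 136 and 135 TPM in sgCbfa2t3, without overlap, a log2 difference of 0.40 (SE 0.11, limma adjusted p = 0.0702). It passed in 2 of 16 settings, with DESeq2 (adjusted p = 0.0457) and by limma with the replicate block (0.049). Over the 16 settings the adjusted p reached 0.246. *Dhcr7* averaged 34.3 ± 5.73 TPM (SD, n = 3) against 48.4 ± 5.16 TPM (SD, n = 3), a log2 difference of -0.49 (SE 0.19, limma adjusted p = 0.257). The median of the 31 genes was -0.09, beside -0.01 for all genes, and moved to -0.01 without sgZbtb1 replicate 1 and to -0.15 without sgCbfa2t3 replicate 2. Of the neighbouring genes, *Acadm* and *Soat1*, the enzyme that esterifies cholesterol, were called as lower in sgZbtb1. The markers *Ly6d* (log2 difference -0.96), *Hbb-bt* (-0.71) and *Lck*, a T cell kinase gene (-0.57), were called by limma as lower in sgZbtb1 too, *Hbb-bt* not by DESeq2 and *Lck* by neither edgeR nor DESeq2. The OP9 stroma markers summed to 0.558 to 4.78 TPM in sgZbtb1 and 7.42 to 9.41 TPM in sgCbfa2t3, beside 1.16 to 6.97 TPM in sgCont, with 0 called of 1 tested. The part of these markers was not tested.

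In the libraries labelled sgLmo2, 0 of 31 genes passed by limma, edgeR or DESeq2, beside 0.0173% of all genes by limma. At an unadjusted limma p below 0.05 were 3 (9.68%), beside 5.65% of all genes. The lowest p was that of *Tm7sf2*, which read 8.71, 5.21 and 10.6 TPM in sgCont and 3.96, 1.96 and 1.64 TPM in sgLmo2, without overlap (log2 difference -1.39, SE 0.43, unadjusted p = 0.00204, limma adjusted p = 0.693). It rests on 14 reads in all in sgLmo2 and 42 in sgCont, a ratio of 0.305 after scaling to library size with an exact 95% interval of 0.154 to 0.569 that covers counting error only. Its 3 libraries read 6.15 to 8.35 TPM in sgZbtb1, 4.83 to 7.16 TPM in sgCbfa2t2 and 6.09 to 8.56 TPM in sgCbfa2t3, all above every sgLmo2 library. *Acaca* was below sgCont in every sgLmo2 library (log2 difference -0.48, SE 0.20, limma adjusted p = 0.849). In these libraries the LP markers summed to 2427 to 2467 TPM, beside 2301 to 2333 TPM in sgCont, with 0 of 11 called. The erythroid markers summed to 71.2 to 113.1 TPM, beside 114.3 to 148.1 TPM in sgCont, with 0 called of 1 tested. Their part was not tested. The median of the 31 genes was -0.03, beside 0.01 for all genes, and lay between -0.11 (without sgCont replicate 1) and -0.0013 (without sgCont replicate 3) when a library was left out.

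*Srebf1* gave the lowest p in the libraries labelled sgCbfa2t2. It read 42.6, 43.9 and 50.2 TPM, above all 3 sgCont values, a log2 difference of 0.54 (SE 0.22, unadjusted p = 0.0164, limma adjusted p = 0.404). It lay above every sgCont library in sgLmo2 as well, at 44.7, 46.9 and 41.6 TPM (log2 difference 0.50, SE 0.22, limma adjusted p = 0.849), and in sgCbfa2t3, at 39.7, 37.7 and 37.7 TPM (log2 difference 0.30, SE 0.22, limma adjusted p = 0.679). These share the sgCont libraries, and reads from *Srebf1* and the opposite-strand gene *Rai1* could be mixed. In sgCbfa2t2, 0 of 31 genes passed by limma, edgeR or DESeq2, beside 0.147% of all genes, and *Srebf1* was the 1 gene (3.23%) with an unadjusted limma p below 0.05, beside 9.56%. The median was -0.02, and its sign turned when a library was left out, from -0.10 without sgCbfa2t2 replicate 3 to 0.07 without sgCbfa2t2 replicate 1, with 0.05 without sgCont replicate 3. *Ly6d* fell in these libraries too (log2 fold change -0.69, limma adjusted p = 0.0186, called by edgeR and DESeq2 as well), and its part was not tested.

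Over all 5 conditions, the moderated F test called 1 of the 31 genes, *Hmgcs1* (limma adjusted p = 8.91e-05), beside 4.54% of all genes. *Scap* (limma adjusted p = 0.0521), *Ebp* (0.0669) and *Fads2* (0.0809) followed. *Hmgcs1* kept that call in the 7 other settings in which the F test was run (pseudocount, both filters, replicate block, size factors, edgeR and DESeq2) and with any 1 library left out. At an unadjusted p below 0.05 were 14 of the 31 genes, beside 16.7% of all genes.

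The peak lists place the factors near some of these genes, and a nearest gene is a position, not a target. Zbtb1 had 5898 peaks and Cbfa2t3 6077. A Zbtb1 peak named 12 of the 31 genes (38.7%) as nearest, beside 26.8% of all genes tested, and within 10 kb of the start it was 7 (22.6%) beside 21.8%, so near the start the share is that of genes at large. For Cbfa2t3 it was 5 (16.1%) beside 20.5%, and within 10 kb 2 (6.45%) beside 12.6%. With a peak score of at least 30, the counts were 5 (16.1%) beside 14.3% for Zbtb1 and 4 (12.9%) beside 12.8% for Cbfa2t3.

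Of the 3 genes that fell in sgZbtb1, *Hmgcs1* and *Fads2* had a Zbtb1 peak at the start. The *Hmgcs1* peak spans chr13:119690303-119690673 (mm10), from the last bases of the promoter stretch printed above into the gene, with its centre in the first exon, 137 bases after the start. Its score of 15.5 lies just above the minimum of 15 in the list, higher than 3.15% of it. It begins 81 bases after the sterol element. The *Fads2* peak, chr19:10101315-10101685, is centred 3 bases after the start with a score of 27.7, close to the list median of 28.

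The strongest member peak was at *Sqle*, whose level overlapped between sgZbtb1 and sgCont. It scored 122.8, above 94% of the Zbtb1 list, and lies 251 bases before the start. The central 200 bases, chr15:59314742-59314941 on the plus strand of mm10, are shown for this contrast, with capitals for 3 GC boxes (CCGCCC) and 1 CCAAT box (ATTGG).
Sqle: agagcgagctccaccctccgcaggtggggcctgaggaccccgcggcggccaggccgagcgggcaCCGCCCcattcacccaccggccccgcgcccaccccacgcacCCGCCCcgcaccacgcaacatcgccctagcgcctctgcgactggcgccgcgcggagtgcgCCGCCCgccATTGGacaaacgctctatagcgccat
It holds no TGTGGT, the core of the Runx motif, which stood in 3 of the 14 Zbtb1 peaks of these genes (21.4%) and in 41.3% of all Zbtb1 peaks, searched on both strands in the central 200 bases.

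Zbtb1 peaks at the start were also annotated to *Acss2* (score 60.9), *Cyp51* (30.6) and *Srebf2* (24.8), and 1 in the body of *Lss* lay 9926 bases after the start. *Lss* read 31.4, 30.7 and 30.5 TPM in sgCont and 21.8, 34.4 and 21.6 TPM in sgZbtb1, which overlap, and *Acss2* read 0.58, 2.32 and 6.45 TPM against 1.12, 3.82 and 2.46 TPM. *Scd1* and *Mvd* had none within 10 kb. *Insig1* had 3 Cbfa2t3 peaks, 7230 and 1118 bases before and 500 bases after its start, and *Scd2* 1 in its first exon, 148 bases after the start. In sgCbfa2t3, *Scd2* read 858, 745 and 602 TPM, a range wider than that of sgCont. At 1 place, 26.6 kb before *Scd2*, a Zbtb1 and a Cbfa2t3 peak overlapped.

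**Figure D4:**
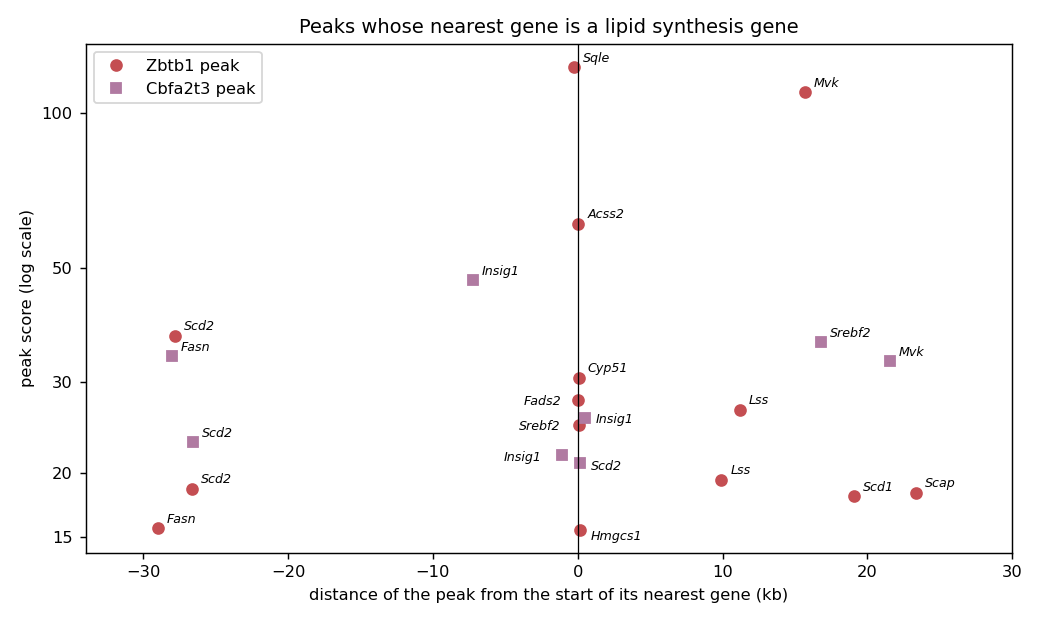
Each point is a Zbtb1 (circle) or Cbfa2t3 (square) peak whose nearest gene is one of the 31, by its distance from the gene start in kb and its peak score on a log axis. Zbtb1 peaks lie at the start of *Sqle* (122.8), *Acss2* (60.9), *Cyp51* (30.6), *Fads2* (27.7), *Srebf2* (24.8) and *Hmgcs1* (15.5), and 3 Cbfa2t3 peaks lie near *Insig1*.

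Promoter windows of 250 bases before to 50 after the RefSeq start (GRCm38.p6) were present for 24 of the 31 genes and for 8486 of the genes tested. Letters were searched on both strands, and no motif here contains another. CCAAT was in 20 of the 24 (83.3%) and in 43.2% of the genes tested, and GGGCGG in 20 (83.3%) and 70.5%. The sterol element TCACNCCAC matched 1 (4.17%), *Hmgcs1*, beside 1.44%, the E-box CACGTG 5 (20.8%) beside 12.3%, and TGTGGT 3 (12.5%) beside 15%. The CCAAT box, which NF-Y binds, is a known partner element of SREBP sites. *Fads2*, *Scap*, *Elovl6* and *Acaca* were the 4 genes without it in the window, whereas both *Hmgcs1* and *Hsd17b7* carried it. The only *Acaca* window, chr11:84195188-84195487, lies inside the gene, whose annotated start is at 84129672, and the sequence at that start was not searched.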

How the data were processed

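QuantSeq 3′ mRNA sequencing had 15 libraries, 3 for each sgRNA condition, grouped by the labels. The authors trimmed reads with fastp, mapped them to mm10 with STAR and scaled the libraries to equal totals. What the authors deposited as TPM are CPM values, reads scaled to library size with no division by length. Whole reads were recovered for at least 99.97% of the values above 0 in every library, within 0.05 of a read, and a row with no gene identifier held 1 read in each library. Per the labels and the methods, ChIP-seq reads were mapped with Bowtie 1.1.1, and the authors deposited 1 HOMER peak list per factor with a normalized peak score of at least 15, reproducible in 2 replicates.

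Genes with a mean above 1 TPM were fitted as log2(TPM + 1) over all 15 libraries with limma 3.58.1 (moderated tests with a trend, and a moderated F test over the 5 conditions), and p-values were adjusted by Benjamini-Hochberg over the 11554 genes. Fold changes are on this scale and understate low genes. An exact two-sided permutation test of 3 against 3 libraries cannot go below p = 0.1. Alternatives included edgeR 4.0.16 and DESeq2 1.42.0 on recovered reads. In sgZbtb1 against sgCont edgeR called 569 genes and limma 554. The 31 genes and all lists were chosen with earlier results of these data known, and values by library were given by rule for genes called, with the lowest p of a comparison, with the 3 highest means or with a peak within 10 kb. Scd1, Mvd and Ebp were added after their values were seen. Promoters are from RefSeq. Replicates are described as biological, and nothing in the labels ties equal replicate numbers together, so p-values measure the spread between these libraries.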

Additional observations from a re-analysis of the deposited data

How the results depend on the processing

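*Hmgcs1* kept its call in sgZbtb1 against sgCont under all alternatives, with log2 fold changes of -0.65 to -0.45 and adjusted p of 2.66e-05 to 0.00375. Of the 31 genes, 1 was called there with no filter and 1 on unlogged TPM (*Hmgcs1* in both), 4 with the replicate block, and 1 to 3 when a library was left out, the 1 being without sgCont replicate 3 or sgZbtb1 replicate 3. Of all genes, 330 of 18602 were called with no filter, and of 11554, 435 on unlogged TPM and 709 with the block. With a library left out they were 306 to 459, with 306 without sgZbtb1 replicate 3 and 330 without sgCont replicate 3. *Hsd17b7* and *Fads2* were lost with no filter, on unlogged TPM and with DESeq2 (adjusted p of 0.0583 to 0.204), and *Hsd17b7* also against the other 3 sgRNAs (0.0533), where *Dhcr7* (log2 difference -0.51, adjusted p = 0.0347) was called as lower and *Elovl6* (0.31, adjusted p = 0.0406) as higher. *Scd1* was called with a mean above 10 TPM, in the 6 libraries alone, with the block, edgeR and DESeq2 (0.0412 to 0.0499), and *Mvd* without sgCont replicate 2 (0.0379). The median of the 31 genes in that comparison stayed between -0.31 and -0.17.

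For sgZbtb1 against sgCbfa2t3, 1 gene was called in the 6 libraries alone (*Fads2*) and 1 with DESeq2 (*Elovl6*), 2 with the replicate block (both of these), and 0 to 1 when a library was left out, *Fads2* being the 1 without sgCbfa2t3 replicate 1. Of all genes, 132 were called in the 6 libraries alone, 129 with DESeq2, 166 with the block and 86 to 107 with a library left out. The F test called 4 with the replicate block, 2 with a mean above 10 TPM, 2 with median-of-ratios size factors, 2 with edgeR, 2 with DESeq2 and 1 to 3 with a library left out, 3 without sgLmo2 replicate 1 or sgCbfa2t3 replicate 3. Of all genes it called 718 with the block, 489 of 8157 with a mean above 10 TPM, 532 with size factors, 538 with edgeR and 543 with DESeq2. With a library left out it called 338 to 583, beside 525 in the main fit. Against the other 3 sgRNAs in place of sgCont, sgLmo2 had 2 called, beside 201 of all 11554 genes. *Hmgcs1* was called as higher (log2 difference 0.34) and *Ebp* as lower (-0.46), and that reference includes sgZbtb1. With this reference the medians were 0.12 in sgLmo2, 0.16 in sgCbfa2t2 and -0.035 in sgCbfa2t3. Against sgCont, the sgCbfa2t3 median was -0.20 to -0.028 when a library was left out, the ends being without sgCont replicates 2 and 3. The cause of these shifts was not tested. Counts of genes nearest to a peak were 7 (within 10 kb) and 5 (score at least 30) for Zbtb1 and 2 (within 10 kb) for Cbfa2t3.

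Libraries with the same replicate number correlated in their deviations from the group mean by -0.00720 to 0.0656, with a mean of 0.0279. For different numbers the range was -0.0608 to 0.0320, with a mean of -0.0139. The labels do not tie equal numbers together, so the main fit took no pairing, and a shared replicate effect was not tested. With the replicate block, limma called 709 genes in sgZbtb1 against sgCont, beside 554 without it. At 1705416 to 2095447 reads a library, genes such as *Acss2*, *Idi1* and *Tm7sf2* rest on few reads, and their log2 differences have SEs of 0.43 to 0.57. The results for *Scd1*, *Mvd*, *Tm7sf2*, *Srebf1*, *Elovl6*, and for *Hmgcs1* and *Fads2* where not called, were put through the alternatives after seeing the data.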
